A study of Mus musculus with 15 samples.

Results

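The signalling genes described here were chosen for a higher signal in dendritic cells grown with interleukin-4 than in cells grown without it. There are 8 of them, Dgka, Vdr, Fyn, Pkib, Adam19, Slc27a3, Avpi1 and Gimap1, out of 8251 genes that had a probe set with a single gene symbol. They were read on 9 probe sets of 12422, because Vdr had 2 and each of the others had 1. Where a gene had more than 1 probe set, its main one was that with the highest mean log2(signal + 16) over the 15 arrays. The genes were chosen by the measured differences between the culture types at 0, 6 and 20 h, so these differences are given as a description, with a standard error and no test.

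Dendritic cells (DC) capture antigen and present it to T cells. They were grown for 4 days from bone marrow of 6 to 8 week old female NOD mice, a strain prone to autoimmune diabetes, and the series title names the GM4 cells as therapeutic. GM4 DC grew in 1 ng/ml GM-CSF plus 1 ng/ml interleukin-4 and GM DC in 1 ng/ml GM-CSF alone, so GM-CSF was common to both. GM4 DC were then isolated over 14.5% metrizamide and GM DC over 16%, so culture and gradient cannot be told apart. Both were stimulated with 10 µg/ml lipopolysaccharide (LPS, a bacterial cell wall component) and 50 ng/ml interferon-γ, and the 0 h cells were the unstimulated ones. The 15 arrays held 3 GM4 and 3 GM samples at 0 h, 3 GM4 and 2 GM samples at 6 h, and 2 GM4 and 2 GM samples at 20 h. Replicates are called biological in the labels, which do not say how many mice were pooled, and with 2 or 3 arrays a group the precision is limited. The median signal was 40.03 to 48.4 per array, and the lowest correlation between replicates was 0.966. The arrays measured bulk RNA, in which fewer cells of a type and less RNA per cell cannot be told apart.

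Interleukin-4 binds a receptor containing Il4ra and activates Jak kinases and the transcription factor STAT6, and it favours the growth of dendritic cells over macrophages from bone marrow. The 8 genes act at different points of other pathways. Dgka encodes a kinase that turns the second messenger diacylglycerol into phosphatidic acid and so limits protein kinase C and Ras activation. Vdr is the nuclear receptor for the hormone form of vitamin D, which dampens dendritic cell maturation. Fyn is a Src family tyrosine kinase, best known for signalling below the T cell receptor. Pkib is a small inhibitor of the cyclic AMP dependent protein kinase A. Adam19 is a membrane metalloprotease that sheds surface proteins, Slc27a3 is a fatty acid transport protein family member with acyl-CoA synthetase activity, Avpi1 is named for its induction by vasopressin, and Gimap1 is a GTPase required for mature lymphocytes in mice.

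All 8 genes had their lowest GM4 array above their highest GM array over all 15 arrays, which holds for 1.04% of the 12422 probe sets. Taken time by time, the GM4 arrays lay above the GM arrays for all 8 at 0 h, at 6 h and at 20 h, against 12.5%, 19.4% and 22.5% of all probe sets, and 5.21% at all 3 times. Their differences were at least 1 on the log2(signal + 16) scale at 0, 6 and 20 h for 6 of the 8, against 0.523% of all probe sets, the exceptions being Avpi1 and Gimap1 at 20 h. These counts follow from how the genes were chosen. Signals of different probe sets are not set against each other. Over time 3 kinds of course appeared in GM4 DC. Dgka had a peak at 6 h, Fyn moved little, and Pkib, Vdr, Adam19, Slc27a3, Avpi1 and Gimap1 had lower signals after 0 h. The fall was smallest for Pkib, at 81.4% and 81.6% of its 0 h mean. "Held high" therefore described Pkib, Fyn and Dgka best, whereas the GM4 signals of Avpi1 and Gimap1 at 20 h were 24.2% and 14.5% of their 0 h means.

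**Figure D1:**
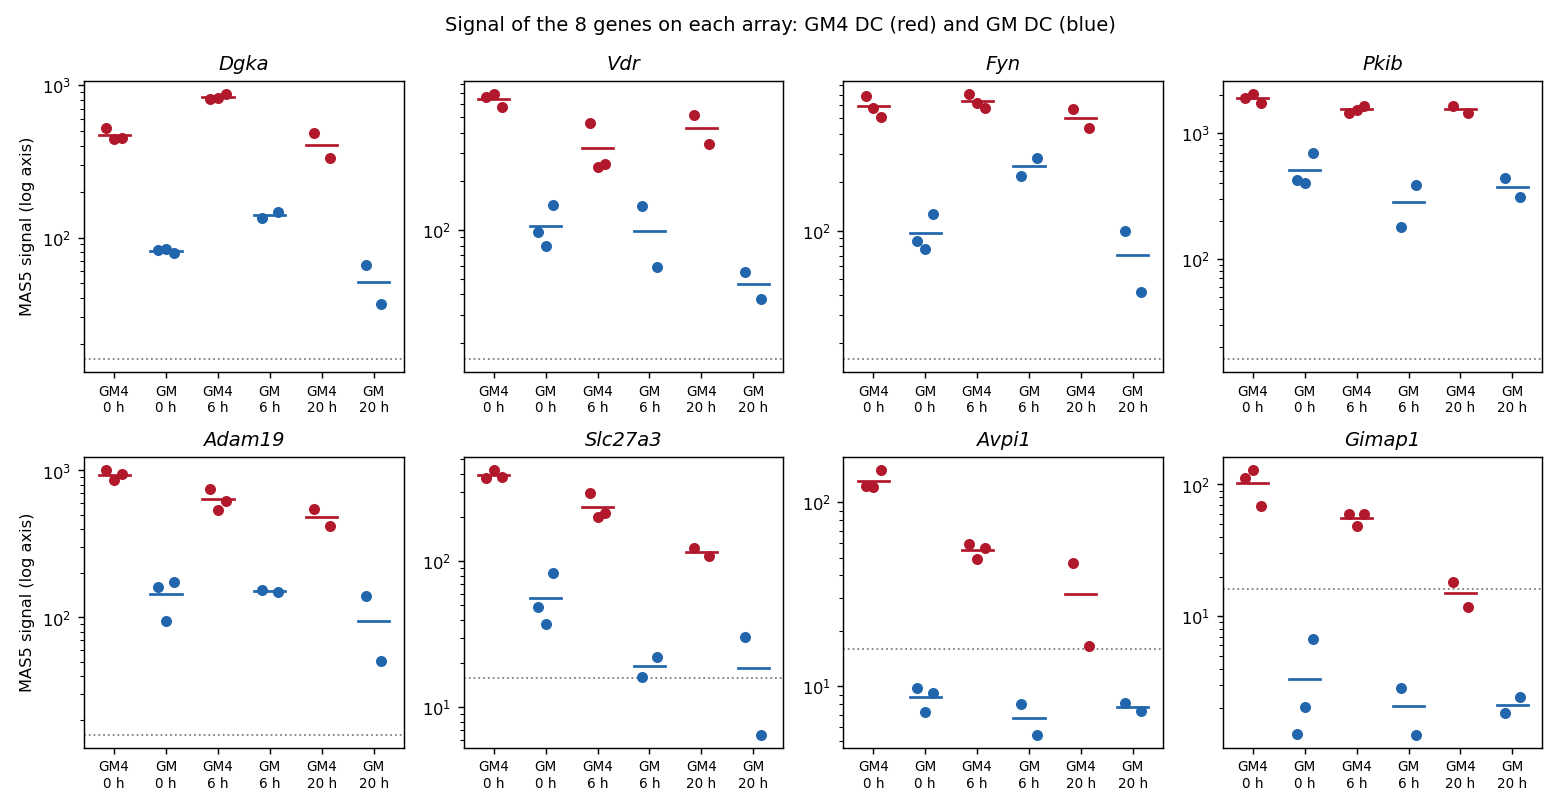
MAS5 signal (log axis) of the main probe set of each of the 8 genes on each of the 15 arrays, with GM4 DC in red left of GM DC in blue at 0, 6 and 20 h. Points are arrays, bars are group means and the dotted line is a signal of 16; for every gene all red points lie above all blue points, and Avpi1 and Gimap1 in GM DC lie below the line on every array.

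The 300-base promoter windows of the 8 genes (250 bases before to 50 after each start) were read from RefSeq for build GRCm38.p6. All 8 genes matched, with 14 windows in all, because Dgka had 4, Adam19 3 and Pkib 2 starts, and some windows of 1 gene overlap. They are shown because STAT6, the factor that interleukin-4 activates, recognises TTC and GAA spaced by 4 bases. That motif, TTCNNNNGAA, which reads the same on both strands, was found in 5 of the 14 windows, from 4 genes: Slc27a3, Pkib, Adam19 and Vdr. It was also found in 6.95% of all 32851 promoter windows of the same length, that is, in 2284 windows. The shorter STAT motif TTCNNNGAA was found in 1 window, of Pkib, and in 8.30% of all windows. A κB-like motif, GGGNNTTTCC on either strand, was found in 0 of the 14 windows and in 1.63% of all. The 5 windows with the longer motif follow, 5′ to 3′ on the gene's own strand, with the matches in capitals. In the first Pkib window the second match is the shorter motif.
Pkib chr10:57631731-57632030 (+ strand): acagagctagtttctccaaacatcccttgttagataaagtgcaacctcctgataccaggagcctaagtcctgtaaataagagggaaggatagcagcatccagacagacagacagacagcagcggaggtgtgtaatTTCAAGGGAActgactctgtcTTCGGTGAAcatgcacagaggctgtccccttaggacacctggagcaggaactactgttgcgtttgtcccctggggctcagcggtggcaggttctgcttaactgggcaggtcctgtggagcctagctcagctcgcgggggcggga
Pkib chr10:57645619-57645918 (+ strand): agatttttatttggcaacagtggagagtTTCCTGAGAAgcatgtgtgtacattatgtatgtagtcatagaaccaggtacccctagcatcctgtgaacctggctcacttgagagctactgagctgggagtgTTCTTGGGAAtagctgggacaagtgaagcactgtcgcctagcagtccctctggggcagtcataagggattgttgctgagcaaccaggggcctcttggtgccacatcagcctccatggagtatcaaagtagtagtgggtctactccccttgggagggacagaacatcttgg
Slc27a3 chr3:90389889-90390188 (− strand): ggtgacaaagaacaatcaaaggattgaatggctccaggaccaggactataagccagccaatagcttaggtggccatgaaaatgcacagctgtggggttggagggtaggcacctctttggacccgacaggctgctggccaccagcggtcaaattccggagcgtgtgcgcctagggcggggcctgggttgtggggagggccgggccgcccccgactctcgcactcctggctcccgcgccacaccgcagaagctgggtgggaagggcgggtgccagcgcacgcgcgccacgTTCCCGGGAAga
Adam19 chr11:46054252-46054551 (+ strand): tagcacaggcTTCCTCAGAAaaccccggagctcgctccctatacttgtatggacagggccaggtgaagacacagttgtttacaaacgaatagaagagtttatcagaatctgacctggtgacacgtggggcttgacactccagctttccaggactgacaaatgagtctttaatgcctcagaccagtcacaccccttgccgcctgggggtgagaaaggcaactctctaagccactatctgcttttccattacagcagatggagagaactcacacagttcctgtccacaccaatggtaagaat
Vdr chr15:97908247-97908546 (− strand): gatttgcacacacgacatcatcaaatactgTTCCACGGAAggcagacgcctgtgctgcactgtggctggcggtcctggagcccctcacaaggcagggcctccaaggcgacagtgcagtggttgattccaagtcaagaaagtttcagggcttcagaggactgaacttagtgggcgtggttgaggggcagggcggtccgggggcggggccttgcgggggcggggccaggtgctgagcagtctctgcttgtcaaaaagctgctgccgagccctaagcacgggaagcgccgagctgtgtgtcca
Counted from the start site, the match in Slc27a3 began at base 39 after it. In the first Pkib window the longer motif began at -115 and the shorter at -94, and in the second Pkib window the 2 matches began at -222 and -120. Matches in Adam19 and Vdr began at -240 and -220. GC content of the windows of the 8 genes ran from 41.3% to 70.7%, against a median of 52.7% over all windows. The match in these letters is a description of the sequence; no binding was measured, and the windows of Dgka, Fyn, Avpi1 and Gimap1 did not hold these letters.

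Dgka, the diacylglycerol kinase, had signals of 522, 445 and 452 in GM4 DC at 0 h, against 82.7, 84.2 and 79.3 in GM DC. At 6 h it had 816, 824 and 871 in GM4 DC, against 134 and 148 in GM DC. At 20 h it had 482 and 333 in GM4 DC, against 65.9 and 36.8 in GM DC. Every GM4 array was thus above every GM array, and 6 h was the highest time in both cell types, with no overlap with 0 h or 20 h. On the log2(signal + 16) scale, on which all differences below are given with limma's standard error, GM4 exceeded GM by 2.31 ± 0.16 at 0 h, 2.45 ± 0.18 at 6 h and 2.67 ± 0.20 at 20 h. Mean signals in the 6 h groups were 177% of the 0 h mean in GM4 DC and 171% in GM DC. The 0 h and 20 h ranges overlapped in GM4 DC but not in GM DC.

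Fyn, the Src family kinase, had signals of 686, 576 and 511 in GM4 DC at 0 h, against 86.6, 77.1 and 127 in GM DC. At 6 h it had 704, 619.7 and 581 in GM4 DC, against 219 and 283 in GM DC. At 20 h it had 573 and 435 in GM4 DC, against 99.0 and 41.6 in GM DC. In GM4 DC the 0 h arrays overlapped both later groups, with 6 h above 20 h, whereas in GM DC both 6 h arrays were above all 0 h and 20 h arrays. GM4 exceeded GM by 2.44 ± 0.23 at 0 h, 1.29 ± 0.26 at 6 h and 2.66 ± 0.29 at 20 h. A smaller difference at 6 h went with a GM DC signal of 259% of its 0 h mean, against 107% in GM4 DC. The 6 h response of GM4 DC minus that of GM DC was -1.15 ± 0.35.

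Pkib, the protein kinase A inhibitor, had signals of 1922, 2040.4 and 1742 in GM4 DC at 0 h, against 423, 403 and 696 in GM DC. Its 6 h signals were 1453, 1536 and 1654 in GM4 DC, against 179.5 and 385 in GM DC. Its 20 h signals were 1646 and 1458 in GM4 DC, against 439.5 and 309 in GM DC. Its GM4 means at 6 and 20 h were 81.4% and 81.6% of the 0 h mean, with the 6 h and 20 h ranges overlapping each other and lying below 0 h. The GM4 minus GM difference was 1.91 ± 0.24 at 0 h, 2.48 ± 0.27 at 6 h and 2.03 ± 0.30 at 20 h. Neighbouring GM groups overlapped, and the GM 6 h mean rested on 2 arrays that differed widely.

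Vdr, the vitamin D receptor, had signals of 666, 691 and 579.5 in GM4 DC at 0 h on its main probe set, against 97.6, 79.4 and 143 in GM DC. At 6 h it had 459, 245 and 257 in GM4 DC, against 139.9 and 58.8 in GM DC. At 20 h it had 516 and 341 in GM4 DC, against 54.8 and 37.5 in GM DC. The order of the GM4 groups was 0 h, then 20 h and 6 h, which overlapped each other; in GM DC it was 0 h, 6 h and 20 h, the first pair overlapping. GM4 exceeded GM by 2.46 ± 0.29 at 0 h, 1.58 ± 0.33 at 6 h and 2.82 ± 0.36 at 20 h.
A second Vdr probe set was dimmer and did not show differences of this size. It had 97.2, 70.3 and 48.0 in GM4 DC at 0 h, against 59.2, 26.3 and 40.5 in GM DC, which overlapped. At 6 h it had 96.8, 50.6 and 23.7 in GM4 DC, against 36.5 and 22.8 in GM DC, which overlapped too. At 20 h the 63.4 and 60.3 of GM4 DC lay above the 32.2 and 29.1 of GM DC. Its differences were 0.60 ± 0.34, 0.57 ± 0.38 and 0.74 ± 0.41 at 0, 6 and 20 h, in the same direction as those of the main probe set. Statements on Vdr hold for the main probe set.

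Adam19, the metalloprotease, had signals of 1008, 859 and 943 in GM4 DC at 0 h, against 161, 95.02 and 174 in GM DC. Its 6 h signals were 749, 537 and 623 in GM4 DC, against 154 and 149.8 in GM DC. Its 20 h signals were 551 and 422 in GM4 DC, against 139 and 50.6 in GM DC. In GM4 DC all 0 h arrays were above all later ones and the 6 h and 20 h ranges overlapped; in GM DC neighbouring groups overlapped throughout. GM4 exceeded GM by 2.61 ± 0.27 at 0 h, 1.94 ± 0.30 at 6 h and 2.29 ± 0.33 at 20 h. Its GM4 means at 6 and 20 h were 68.0% and 51.9% of the 0 h mean.

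Slc27a3, of the fatty acid transport proteins, had signals of 375, 423 and 379 in GM4 DC at 0 h, against 48.8, 37.2 and 83.3 in GM DC. At 6 h it had 295, 203 and 214 in GM4 DC, against 16.1 and 22.2 in GM DC. At 20 h it had 124 and 108 in GM4 DC, against 30.5 and 6.52 in GM DC. Here the GM4 groups lay in order without overlap, 0 h above 6 h above 20 h, and GM DC at 0 h was above both later GM groups. GM4 exceeded GM by 2.54 ± 0.27 at 0 h, 2.83 ± 0.30 at 6 h and 2.03 ± 0.33 at 20 h. Against 0 h, its 20 h change was -1.63 ± 0.30 in GM4 DC and -1.11 ± 0.30 in GM DC, the GM DC value resting on 2 arrays that differed widely, with 1 of them below 16.

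Avpi1, the vasopressin-induced gene, had signals of 122, 120.3 and 149.7 in GM4 DC at 0 h, against 9.79, 7.26 and 9.15 in GM DC. Its 6 h signals were 59.5, 49.4 and 56.0 in GM4 DC, against 8.02 and 5.46 in GM DC. Its 20 h signals were 46.6 and 16.6 in GM4 DC, against 8.09 and 7.35 in GM DC. All 7 GM arrays were below a signal of 16, where 29.7% to 35.3% of all probe sets lie on each array, so their order among times carries no information. GM4 exceeded GM by 2.56 ± 0.22 at 0 h, 1.64 ± 0.24 at 6 h and 0.93 ± 0.27 at 20 h. Its 20 h difference rested on 2 unequal GM4 arrays: with GM4 20 h replicate 1 left out it was 0.46, and with replicate 2 of that group left out 1.40. For the 20 h response, GM4 DC minus GM DC was -1.63 ± 0.34. In GM DC the signals were below 16 from 0 h on, so a lower signal could not be read there.

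Gimap1, the lymphocyte GTPase, had signals of 113, 129 and 68.7 in GM4 DC at 0 h, against 1.28, 2.04 and 6.69 in GM DC. Its 6 h signals were 59.8, 48.5 and 60.1 in GM4 DC, against 2.87 and 1.26 in GM DC. Its 20 h signals were 18.2 and 11.8 in GM4 DC, against 1.83 and 2.42 in GM DC. The GM4 groups did not overlap, in the order 0 h, 6 h and 20 h, and 8 arrays were below 16: all 7 of GM DC and 1 GM4 array at 20 h. GM4 exceeded GM by 2.60 ± 0.21 at 0 h, 1.99 ± 0.23 at 6 h and 0.77 ± 0.25 at 20 h. Its 20 h response in GM4 DC minus that in GM DC was -1.83 ± 0.33. These sizes depend on the offset for the genes near the floor: at 0 h the Gimap1 difference was 4.75 with an offset of 1 and 1.30 with 64, and that of Avpi1 was 3.76 and 1.42.

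**Figure D2:**
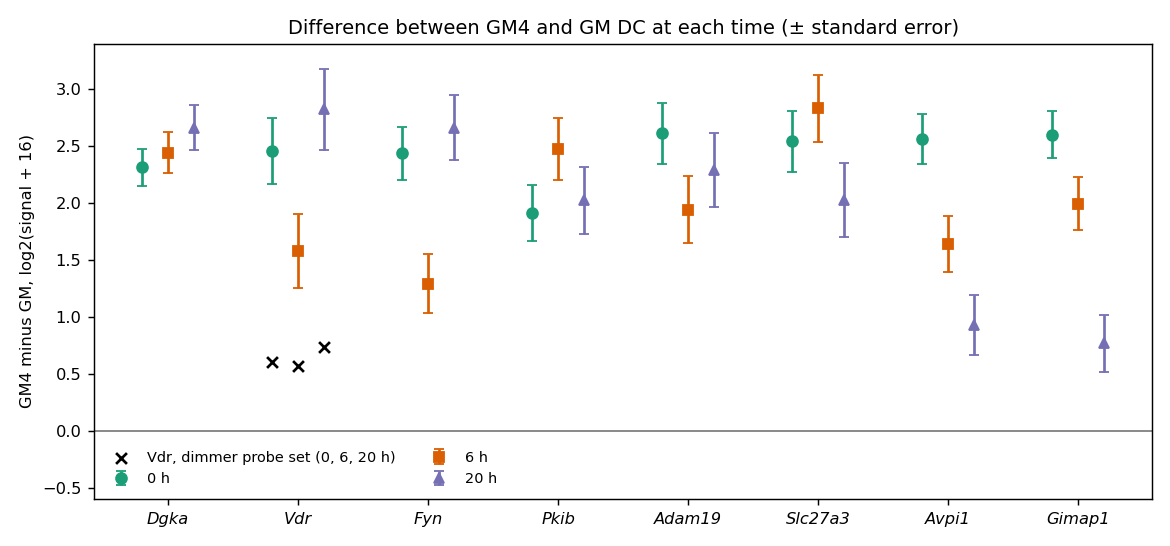
GM4 minus GM difference in log2(signal + 16), with its standard error, for the 8 genes at 0 h (circles), 6 h (squares) and 20 h (triangles); crosses are the dimmer Vdr probe set, at the same 3 times. Dgka has differences from 2.31 to 2.67, Vdr and Fyn have a smaller one at 6 h, and Avpi1 and Gimap1 have the smallest ones at 20 h (0.93 and 0.77).

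Among the 12422 probe sets the GM4 minus GM differences of the members ranked high by choice. At 0 h they lay between rank 6 (Adam19) and rank 44 (Pkib) from the top. At 6 h Slc27a3, Pkib and Dgka held ranks 3, 4 and 5, and Fyn was at 136. At 20 h Vdr, Dgka and Fyn held ranks 5, 6 and 7, whereas Avpi1 was at 329 and Gimap1 at 529. The ranks of Avpi1 and Gimap1 at each time hold for the offset of 16 only, since their GM arrays were below 16: at 20 h the Gimap1 difference was 2.33 with an offset of 1 and 0.26 with 64, and that of Avpi1 was 1.73 and 0.40. The 3 comparisons use separate arrays, so a gene's rank at 1 time is not fixed by another time, but all 3 were known when the genes were chosen.

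The change with stimulation, averaged over GM4 and GM DC, was not the measure that chose the genes and was therefore tested. Where GM4 and GM arrays vary alike, its error is independent of that of the GM4 minus GM differences at 20 h. At 6 h, with 3 GM4 and 2 GM arrays, it is nearly so. That condition is in doubt for Avpi1 and Gimap1, whose GM arrays were all below 16. Their averaged changes came mostly from the GM4 arrays that also chose them, so their p-values may not be free of that choice. The condition is also in doubt for genes whose GM arrays spread more than their GM4 arrays. At 20 h the log2(signal + 16) values of Adam19 were 7.28 and 6.06 in GM DC, against 9.15 and 8.77 in GM4 DC. Those of Slc27a3 were 5.54 and 4.49, against 7.13 and 6.96. For Fyn they were 6.85 and 5.85, against 9.20 and 8.82. At 6 h Pkib had 7.61 and 8.65 in GM DC, against 10.5, 10.6 and 10.7 in GM4 DC. The p-values of these genes share that limit. Of the 8 genes 5 passed an adjusted p under 0.05 at 6 h against 0 h, where 30.5% of all probe sets passed (10.9% higher and 19.7% lower, or 1349 and 2442, and 2235 and 1964 with arrays centred on their medians). Dgka rose by 0.74 ± 0.12 (adjusted p = 0.000298) and Fyn by 0.68 ± 0.18 (adjusted p = 0.00824). Slc27a3 fell by 0.85 ± 0.20 (adjusted p = 0.0044), Avpi1 fell by 0.58 ± 0.16 (adjusted p = 0.0137) and Pkib fell by 0.58 ± 0.18 (adjusted p = 0.0263). Vdr at -0.59 ± 0.22 (adjusted p = 0.0566), Gimap1 at -0.39 ± 0.16 (adjusted p = 0.0728) and Adam19 at -0.22 ± 0.20 (adjusted p = 0.456) did not pass. The second Vdr probe set did not pass at either time, at -0.34 ± 0.25 and -0.21 ± 0.27 (adjusted p = 0.357 and 0.602).

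The Pkib call at 6 h rested on few arrays. Without GM 0 h replicate 3 and GM 6 h replicate 1, a pair of arrays treated as doubted, the Pkib change was -0.19. Without GM 6 h replicate 1 alone it was -0.32. The Pkib call was lost without GM 0 h replicate 3, GM4 0 h replicate 2 or GM4 6 h replicate 1 (adjusted p from 0.0532 to 0.0559). It was also lost with median centring (adjusted p = 0.0701). That of Avpi1 was lost without GM 6 h replicate 2 (adjusted p = 0.0507). Close to the threshold, Vdr passed under 8 alternatives and Gimap1 under 5, those of Vdr including the fit with the replicate number as a block (-0.59, adjusted p = 0.0207).

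By 20 h against 0 h 6 of the 8 genes passed, all lower, where 35.8% of all probe sets passed (16.0% higher and 19.8% lower, or 1987 and 2462, and 2854 and 2142 with median centring). Slc27a3 fell by 1.37 ± 0.21 (adjusted p = 0.000131), Gimap1 fell by 1.00 ± 0.16 (adjusted p = 0.000234) and Avpi1 fell by 0.88 ± 0.17 (adjusted p = 0.00107). Vdr fell by 0.78 ± 0.23 (adjusted p = 0.0164), Adam19 fell by 0.77 ± 0.21 (adjusted p = 0.0101) and Dgka fell by 0.40 ± 0.13 (adjusted p = 0.0247). Fyn at -0.34 ± 0.18 (adjusted p = 0.18) and Pkib at -0.35 ± 0.19 (adjusted p = 0.185) did not pass. Fyn passed without GM 20 h replicate 1, at -0.59 (adjusted p = 0.0149), and its change ran from -0.59 to -0.09 when 1 array at a time was left out. The count was 3 without GM4 20 h replicate 2, and 3 without GM 20 h replicate 2, since Dgka, Vdr and Adam19 each lost their call then, with values from -0.24 to -0.68 and adjusted p from 0.0555 to 0.158. The Dgka call was also lost without GM4 0 h replicate 1 (adjusted p = 0.0579), with quantile normalization (adjusted p = 0.0681) and with median centring (adjusted p = 0.102), and that of Vdr when its probe sets were averaged (adjusted p = 0.0966).

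**Figure D3:**
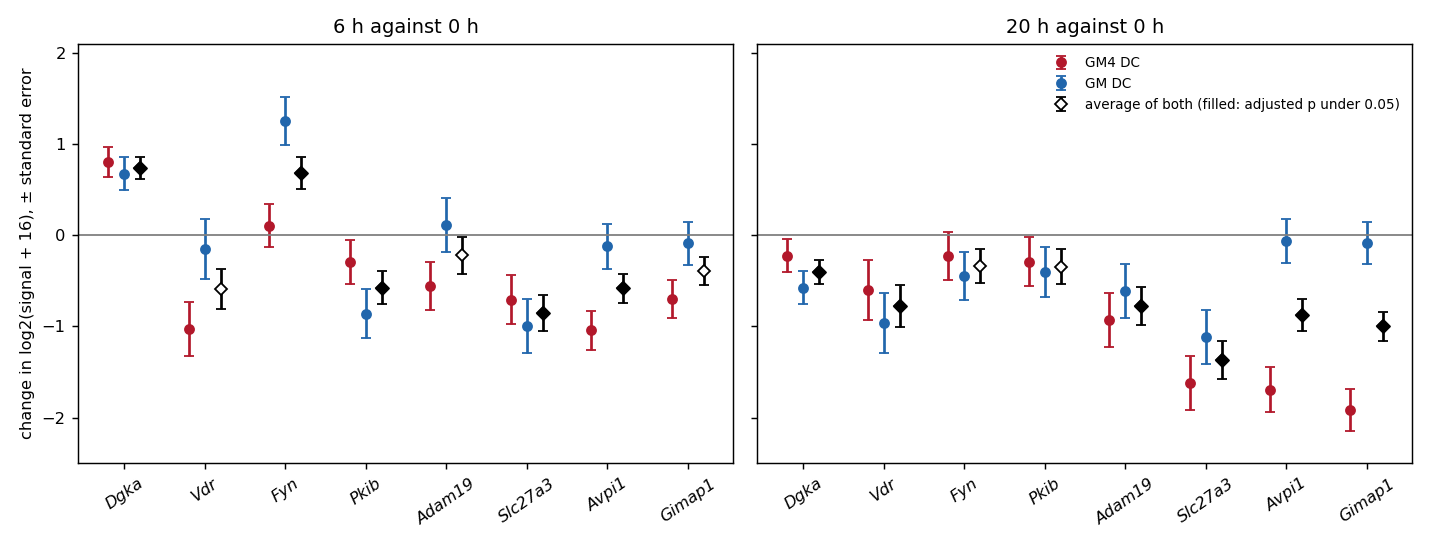
Change in log2(signal + 16) with its standard error at 6 h against 0 h (left) and 20 h against 0 h (right) for the 8 genes, in GM4 DC (red), in GM DC (blue) and as the average of both (diamonds, filled where the adjusted p was under 0.05). At 6 h Dgka is higher in both cell types and Fyn mainly in GM DC (1.25), and at 20 h Avpi1 and Gimap1 are lower in GM4 DC and near 0 in GM DC, where they began near the floor.

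Split by cell type, the averages had unequal parts, given here as values without a test. For Dgka the 6 h change was 0.81 ± 0.16 in GM4 DC and 0.67 ± 0.18 in GM DC. For Fyn it was 0.11 ± 0.23 in GM4 DC and 1.25 ± 0.26 in GM DC, so the averaged rise came mostly from GM DC. Vdr, Pkib, Avpi1 and Gimap1 also had unequal changes in the cell types. For Vdr the 6 h change was -1.03 ± 0.29 in GM4 DC and -0.15 ± 0.33 in GM DC, and at 20 h -0.60 ± 0.33 in GM4 DC and -0.96 ± 0.33 in GM DC. For Pkib the 6 h change was -0.29 ± 0.24 in GM4 DC and -0.86 ± 0.27 in GM DC. For Avpi1 and Gimap1 the 20 h changes were -1.69 ± 0.24 and -1.92 ± 0.23 in GM4 DC, and -0.06 ± 0.24 and -0.08 ± 0.23 in GM DC.

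From 6 to 20 h Dgka was lower by a similar amount in both cell types, -1.03 ± 0.18 in GM4 DC and -1.25 ± 0.20 in GM DC. Fyn was lower over that interval mainly in GM DC, at -1.70 ± 0.29, against -0.33 ± 0.26 in GM4 DC. Vdr was at 0.43 ± 0.33 in GM4 DC and -0.81 ± 0.36 in GM DC. Pkib was at 0.00 ± 0.27 in GM4 DC and 0.46 ± 0.30 in GM DC.

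The 8 genes were correlated with one another over the 15 arrays, with Pearson r from 0.790 (Fyn and Avpi1) to 0.962 (Avpi1 and Gimap1), values that include their shared difference between cell types. Within the 8 GM4 arrays, which share no such difference, Adam19, Slc27a3, Avpi1 and Gimap1 had pairwise r from 0.862 to 0.957. Dgka stood apart there, with r of -0.52 with Vdr, 0.04 with Adam19 and 0.69 with Fyn. Within the 7 GM arrays Dgka and Fyn had r of 0.93. The arrays of a cell type share their times and their scaling, so these values are descriptions.

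Genes most like each member over the 15 arrays, by Pearson r, were sought among 3221 or 3222 other genes with a mean log2(signal + 16) of at least 7. For Dgka they were Irf4 (r = 0.963), Fyn (0.961) and Nup88 (0.953). For Fyn they were Dgka (0.961), Stat4 (0.956) and Cd83 (0.953). For Pkib they were Spsb1 (0.935), Chil3 (0.930) and Nup88 (0.929). Dgka and Fyn were thus each among the genes most like the other. For Vdr they were Adam19 (0.952), Tnfaip8 (0.932) and Dctn2 (0.921), and for Adam19 they were Adcy6 (0.954), Laptm4b (0.952) and Vdr (0.952). For Slc27a3 they were Tnfaip8 (0.985), Adam19 (0.958) and Ltc4s (0.954). For Avpi1 they were Fabp5 (0.962), Tes (0.957) and Uvrag (0.936), and for Gimap1 they were Tes (0.969), Pip4k2a (0.968) and Fabp5 (0.950). The gap between GM4 and GM arrays is part of every one of these values.

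The other genes of each member's pathway, which were not members, were tested for GM4 against GM at each time. Over all probe sets 14.0% passed at 0 h (6.86% higher and 7.12% lower, or 852 and 884, and 975 and 630 with median centring), 11.1% at 6 h (6.39% higher and 4.74% lower) and 4.70% at 20 h (3.14% higher and 1.56% lower). Beside Dgka, 15 of 26 genes of diacylglycerol signalling were measured, with no other diacylglycerol kinase. At 0 h 0 of them were higher and 2 lower: Prkcb, a protein kinase C that diacylglycerol activates, at -1.05 ± 0.17, and Rasgrp2, a Ras family exchange factor, at -0.80 ± 0.19. At 6 h Prkcb was lower, at -0.90 ± 0.19, and Plcg2, a phospholipase that makes diacylglycerol, was higher by 1.07 ± 0.29. At 20 h Prkd2, a kinase recruited by diacylglycerol, was lower, at -0.70 ± 0.19, and Prkch passed at 0.59 ± 0.13 with every array below 16. The list's median was -0.08, -0.06 and -0.16 at 0, 6 and 20 h, against -0.06, -0.04 and -0.04 over all probe sets. With time Prkce rose, by 1.56 ± 0.15 at 6 h and 0.97 ± 0.16 at 20 h, and Prkcb fell by 1.10 ± 0.12 and fell by 1.90 ± 0.13. Averaged over both cell types, 1 of the 15 genes was higher and 2 were lower at 6 h, and 2 were higher and 2 lower at 20 h.

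Of the vitamin D pathway 12 of 18 genes were measured beside Vdr. Rxra, the nuclear receptor with which Vdr pairs on DNA, was lower at 0 h, at -0.76 ± 0.19 (adjusted p = 0.0166), with a mean signal of 128 in GM4 DC and 226 in GM DC. Its relative Rxrb was at -0.08 ± 0.17, 0.12 ± 0.19 and -0.06 ± 0.21 at 0, 6 and 20 h and did not pass. Ncoa3, a coactivator of nuclear receptors, was higher at 6 h by 0.69 ± 0.16 (adjusted p = 0.0115). Rxrg and the vitamin D degrading enzyme Cyp24a1, a classical Vdr target, were below 16 on all 15 arrays. At 20 h 0 of the 12 passed by limma, 2 had an unadjusted p under 0.05, and the list's median was then -0.02, against -0.04 over all probe sets.

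Of the Src family kinases and their regulators 14 of 20 were measured beside Fyn. Of these 0 were higher and 2 lower at 0 h, 1 was higher at 6 h and 1 lower at 20 h, with list medians of -0.04, -0.10 and -0.36, against -0.06, -0.04 and -0.04 over all probe sets. The Src family kinase Fgr was lower at 0 h, at -0.95 ± 0.24 (adjusted p = 0.0183), the direction opposite to Fyn. Pag1, an adaptor that recruits the inhibitory kinase of the family, was lower at 0 h, at -1.01 ± 0.14, and at 20 h, at -1.06 ± 0.17. Tec, a kinase of a related family, was higher at 6 h by 1.42 ± 0.37. Src, Yes1 and Blk did not pass at any time, with differences from -0.37 to 0.77. Of the Src family kinases beside Fyn, Yes1 passed for stimulation at 6 h, where it rose by 0.51 ± 0.16 as an average over both cell types.

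Of the protein kinase A and cyclic AMP genes 17 of 22 were measured beside Pkib, of which 2 were higher and 3 lower at 0 h, 1 higher at 6 h, and 1 higher and 1 lower at 20 h. Their medians of 0.04, 0.05 and 0.06 stood against -0.06, -0.04 and -0.04 over all probe sets. Adcy6, an adenylyl cyclase, was higher at 0 h by 1.53 ± 0.21, at 6 h by 1.32 ± 0.24 and at 20 h by 1.25 ± 0.26 (adjusted p = 0.000243, 0.00253 and 0.0126). Its mean signals were 804 in GM4 DC and 270.1 in GM DC at 0 h. Crem, a cyclic AMP responsive transcription factor, was higher at 0 h by 1.55 ± 0.14. Prkacb, a catalytic subunit of protein kinase A, was lower at 0 h, at -1.05 ± 0.14, as was the cyclase Adcy7, at -1.01 ± 0.30. Pkig, another inhibitor of the kinase, was lower, at -0.42 ± 0.12 at 0 h and -0.81 ± 0.15 at 20 h, and the inhibitor Pkia was below 16 on all arrays.

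All 16 listed ADAM proteases and inhibitors were measured beside Adam19. At 0 h Adam23 was higher by 1.57 ± 0.33 and Adam8 by 0.64 ± 0.14, and Adam15 was lower, at -0.69 ± 0.18, as was Adam10, at -0.54 ± 0.17. At 6 h and at 20 h 0 of the 16 passed by limma, with 5 and 1 at an unadjusted p under 0.05, and the medians at 0, 6 and 20 h were -0.01, -0.17 and 0.02. The sheddase Adam17 was at or near the floor, with 9 of 15 arrays below 16. Of the fatty acid genes 9 of 12 were measured beside Slc27a3, with medians of -0.07, -0.01 and 0.08. Fabp5, a fatty acid binding protein, was higher at 0 h by 1.46 ± 0.14 and at 6 h by 1.28 ± 0.16. Slc27a4, of the same family as Slc27a3, was lower at 6 h, at -0.80 ± 0.16, and Acsl4, an acyl-CoA synthetase, was higher at 20 h by 0.73 ± 0.19. Slc27a1 did not pass at any time in GM4 against GM, and averaged over both cell types it fell by 1.97 ± 0.16 at 6 h and fell by 1.31 ± 0.17 at 20 h. Slc27a2 and Slc27a5 were below 16 on all arrays.

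Of the vasopressin system 4 of 5 genes were measured beside Avpi1, and 0 passed in any GM4 against GM comparison by limma. At an unadjusted p under 0.05 there were 1, 1 and 0 at 0, 6 and 20 h, with list medians of -0.24, -0.26 and -0.18. Gimap4 was the only other GIMAP gene measured, of 7. It was higher in GM4 DC by 0.81 ± 0.21 at 0 h and 1.43 ± 0.23 at 6 h (adjusted p = 0.0195 and 0.00138), and it was at 0.00 ± 0.26 at 20 h (adjusted p = 0.998). Its mean signals were 21.4 in GM4 DC and 5.24 in GM DC at 0 h, and 28.2 in GM4 DC and 30.02 in GM DC at 20 h. Gimap4 thus had, as Gimap1 did, its smallest difference at 20 h, but with a higher GM DC signal then than at 0 h, and 5 of its 15 arrays were below 16. Over both cell types it rose at 20 h by 0.65 ± 0.17, where Gimap1 fell.

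Of interleukin-4 receptor signalling 10 of 11 genes were measured, and at 0 h 6 were higher and 0 lower. The feedback inhibitors Cish and Socs1 were higher by 1.63 ± 0.24 and 1.47 ± 0.20, Tyk2 by 1.10 ± 0.33, the receptor chain Il4ra by 0.83 ± 0.24, Jak3 by 0.53 ± 0.11 and Jak1 by 0.50 ± 0.13. The list's median was 0.53 at 0 h, 0.20 at 6 h and -0.05 at 20 h, against -0.06, -0.04 and -0.04 over all probe sets. After stimulation Cish was higher by 0.98 ± 0.27 and Socs1 lower, at -1.05 ± 0.22 at 6 h, and Il13ra1, a receptor chain shared with interleukin-13, was lower, at -1.56 ± 0.16 at 20 h. Stat6 did not pass, at 0.53 ± 0.18, 0.61 ± 0.20 and -0.10 ± 0.22. The members differed by more than these genes at 0 h, but the members had been chosen for that.

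**Figure D4:**
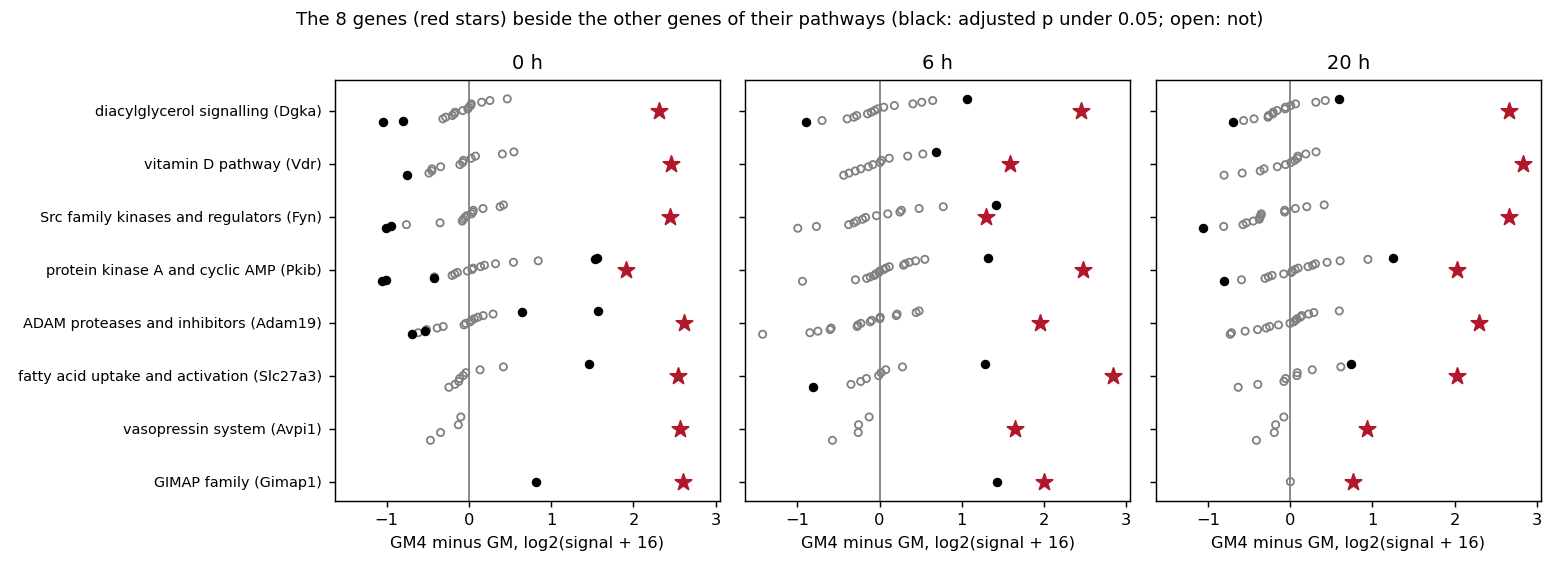
GM4 minus GM difference in log2(signal + 16) at 0, 6 and 20 h (panels left to right) of each member (red star) beside the other measured genes of its pathway, filled where the adjusted p was under 0.05. The member is the rightmost point of its row in all panels except for Fyn at 6 h (1.29), where Tec is higher (1.42).

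Markers and RNA quality moved with the cell type. All 13 dendritic cell markers were measured and none was below 16 on every array, with summed signals of 19829 to 26964 in GM4 DC and 14056 to 19526 in GM DC at 0 h. The sums overlapped later, at 20923 to 29305 in GM4 DC and 21067 to 28736.5 in GM DC at 6 h. By 20 h the 13 markers summed to 14621.5 to 16876 in GM4 DC and 11911 to 16863 in GM DC. At 0 h 6 of them were higher and 0 lower: Cd86 by 2.91 ± 0.24, Ccr7 by 2.25 ± 0.23, Ly75 by 1.68 ± 0.23, Cd80 by 1.52 ± 0.26, Zbtb46 by 1.499 ± 0.29 and Cd40 by 1.17 ± 0.11. At 6 h 3 were higher and at 20 h 2, with 0 lower at either time. Itgax, H2-Ab1, H2-Aa, H2-Eb1, Cd74, Ciita and Flt3 did not pass at any time. Monocyte and macrophage markers (10 of 12 measured) summed to 4652 to 5277 in GM4 DC at 0 h and 13248 to 16384 in GM DC, with 7 lower and 0 higher. Because Fyn, Dgka and Gimap1 are abundant in lymphocytes, T and NK cell markers were summed as well (15 of 18 measured). They summed to 1106 to 1274 in GM4 DC and 653 to 819 in GM DC at 0 h, to 827 to 1101 in GM4 DC and 849 to 1016 in GM DC at 6 h, and to 981 to 985 in GM4 DC and 1086 to 1109 in GM DC at 20 h. Cd3d, Cd3g, Cd8b1, Cd2 and Cd5 were below 16 on all arrays and Cd3e on 12 of 15, and Il7r alone gave 371 to 970. In this list 3 were higher and 1 lower at 0 h, 1 was higher at 6 h and 0 passed at 20 h by limma, where 1 had an unadjusted p under 0.05. At 0 h Thy1 was higher by 1.89 ± 0.33 (adjusted p = 0.0015), Il7r by 0.92 ± 0.17 and Gzma by 0.88 ± 0.28, and Cd3d was lower, at -0.38 ± 0.11, below 16 throughout. Mean Thy1 signals at 0, 6 and 20 h were 77.7, 44.4 and 7.502 in GM4 DC, against 9.04, 16.04 and 16.3 in GM DC. Its GM4 means lay in the same order as those of Gimap1, but also of Adam19, Slc27a3 and Avpi1. Gzma and Il7r did not have that order, with GM4 means of 26.7, 32.1 and 25.6 and of 883, 602 and 657. Thy1 was listed among the stromal markers too. The part of other cell types in the members' differences was not tested. B cell markers (10 of 11 measured) summed to 1258 to 1983 in GM4 DC and 544 to 887 in GM DC at 0 h, with 2 higher and 1 lower. Most of these sums was Blnk, with 0 h means of 1349 in GM4 DC and 522 in GM DC, where the list means were 1564 and 758. Neutrophil and granule markers (14 of 14 measured) summed to 9931 to 15458 in GM4 DC and 9471 to 9710 in GM DC at 0 h. Of these 3 were higher then, Lcn2 by 1.80 ± 0.30, Ly6g by 1.20 ± 0.30 and Ltf by 1.01 ± 0.29. Another 2 were lower, among them Mmp8 at -3.07 ± 0.50. The median of the neutrophil list at 0 h was 0.51, against -0.06 over all probe sets. Mast cell, basophil and eosinophil markers summed to 286 to 332 in GM4 DC and 185 to 222 in GM DC at 0 h, with 2 higher and 1 lower. Stromal markers summed to 488 to 831 in GM4 DC and 808 to 1714 in GM DC at 0 h, with 1 higher and 4 lower.

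The 3′ to 5′ signal ratio of the Gapdh control probe sets, a measure of RNA integrity, was 1.03 to 1.48 on GM4 arrays and 1.18 to 2.46 on GM arrays. The ratio of β-actin was 1.13 to 1.44 on GM4 arrays and 1.43 to 2.26 on GM arrays. RNA quality thus went largely with the cell type, and a covariate cannot fully separate the 2. With the mean log2 ratio of Gapdh and β-actin as a covariate, the members' differences at 0 h were 2.22 (Dgka and Pkib) to 2.72 (Slc27a3), and the 5 calls at 6 h and 6 calls at 20 h of the averaged time changes stayed past the threshold. Without the covariate the 0 h differences were 1.91 to 2.61.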

How the data were processed

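Each of 15 RNA samples was hybridised to 1 Affymetrix mouse oligonucleotide array, per the labels. The deposited values are linear probe set intensity. Per the submitters' processing notes they come from MAS5, with no version given in the sources used here. All arrays had been scaled by the authors to a 2% trimmed mean of 150.1, as computed from the files. Scaling hides a global change in RNA content, and low signals are noisy. Titles gave the 6 groups. For 0 h GM4 samples the source name speaks of stimulation, against the title, and 1 of them (replicate 1) has no doses or gradient in its protocol. After 66 of 12488 probe sets had been dropped as controls, all other 12422 were tested. Platform annotation named 1 gene for 10833 of these, several for 396 and none for 1193.

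Values were analysed as log2(signal + 16), which understates changes of dim genes, in R 4.3.3 with limma 3.58.1. A model of 6 group means over 15 arrays was moderated with an intensity trend (9 residual degrees of freedom, prior 4.76). Benjamini-Hochberg adjusted p-values under 0.05 over the 12422 probe sets were called, per contrast. The members, gene lists, motifs and naming rule were chosen with earlier results of these data known. All members were named. Of the pathway lists, genes that passed for GM4 against GM (up to 5 per list and comparison) and relatives in the same gene families were named. The fit was tested on simulated data. Whether equal replicate numbers pair samples was checked by correlating deviations from group means. Alternative settings covered the offset (1 or 64), normalization (quantile, median centring), a filter on dim probe sets at the 40th percentile, array weights, a fit with no intensity trend, the replicate number as a block, RNA quality as a covariate, 2 doubted arrays, averaged probe sets, fits of only the groups compared, and each array left out in turn.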

Additional observations from a re-analysis of the deposited data

Results flagged for a closer look

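None of the 8 members is listed here. Among the other genes of their pathways, GM4 minus GM differences pointed opposite ways at different times with no overlap of the arrays, or the changes in the 2 cell types did, and these contrasts between times or cell types were not tested. Non-overlap is common with so few arrays: all GM4 arrays lay above all GM arrays for 12.5%, 19.4% and 22.5% of probe sets at 0, 6 and 20 h. Of the genes listed for GM4 minus GM, Socs1 alone passed an adjusted p under 0.05 by limma in each direction, higher at 0 h and lower at 6 h. The others passed in no more than 1 direction. Socs1 was at 1.47 at 0 h, -1.05 at 6 h and -0.66 at 20 h. Il4ra was at 0.83 at 0 h and -0.49 at 20 h. Jak3 was at 0.53 at 0 h, 0.31 at 6 h and -0.20 at 20 h. Tec was at 1.42 at 6 h and -0.81 at 20 h. Plcg2 was at 1.07 at 6 h and -0.44 at 20 h. Prkd2 was at 0.41 at 6 h and -0.70 at 20 h. Adam8 was at 0.64 at 0 h, 0.44 at 6 h and -0.55 at 20 h. Acsl4 was at -0.35 at 6 h and 0.73 at 20 h. For Crem the change at 6 h was -0.40 in GM4 DC and 1.08 in GM DC, and at 20 h -0.19 in GM4 DC and 0.75 in GM DC. For Prkch the change at 20 h was 0.38 in GM4 DC and -0.19 in GM DC, with every array below a signal of 16.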

How the results depend on the processing

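The GM4 minus GM differences of the 8 members kept their direction under every alternative run, as did their averaged time changes. For the GM4 minus GM differences this followed largely from the choice of the genes. All 8 had every GM4 array above every GM array on their main probe set, so leaving out arrays or changing the offset could not reverse them. Among the tested values of members under alternatives, 385 kept their side of the threshold, 14 gained a call (8 of Vdr and 5 of Gimap1 at 6 h, and 1 of Fyn at 20 h) and 17 lost one. Among the untested differences 601 moved by less than the spread between replicates and 47 by more. Counts over all probe sets moved further. With the RNA quality covariate 964, 794 and 335 probe sets were called for GM4 against GM at 0, 6 and 20 h, against 1736, 1383 and 584. Fitting only the 2 groups compared gave 1143 at 0 h and 723 at 6 h, with fewer samples, and leaving out the 2 doubted arrays gave 678 at 6 h. Leaving out 1 array at a time gave 1114 to 1743 at 0 h (1148 without GM4 0 h replicate 1 and 1114 without GM 0 h replicate 2), 604 to 1464 at 6 h (881 without GM4 6 h replicate 3 and 604 without GM 6 h replicate 1) and 146 to 650 at 20 h (146 and 269 without GM4 20 h replicate 1 or 2, and 189 without GM 20 h replicate 2). For the averaged time changes it gave 3205 to 3780 at 6 h, against 3791, and 3474 to 4526 at 20 h, against 4449, with 4 to 6 members called at 6 h and 3 to 7 at 20 h. Equal replicate numbers gave correlated deviations (r from 0.0026 to 0.332 over 33 pairs, 17 of them over 0.1). Unequal numbers gave r from -0.296 to 0.173 over 60 pairs, 2 of them over 0.1. For 13 of 15 arrays the mean r was highest with the arrays of their own number in other groups. No label ties a number to a shared batch. With the replicate block the differences of members at 0 h were those of the fit without it. That follows from the layout, since each 0 h group held replicates 1, 2 and 3, so it is no check. The block added the call of Vdr at 6 h and changed no other call of a member. The cause of the changed counts was not tested. Signals near 16 limit Avpi1 and Gimap1 in GM DC.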
